A study of Mus musculus with 5 samples.

Results

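The nuclear genes for subunits of the mitochondrial respiratory chain and ATP synthase were examined by ribosome profiling in cultured embryonic stem cells of the mouse (mESCs), which are pluripotent and were kept undifferentiated with LIF and serum. Members were chosen by symbol among protein-coding genes of the Gencode annotation (Nduf, Sdh, Uqcr, Cox4 to Cox8 and Atp5 names), and the protein-coding transcript with the highest mean level represented each gene. This gave 84 of the 21884 protein-coding genes in the table, of which 37 belong to complex I, 4 to complex II, 8 to complex III, 18 to complex IV and 17 to complex V. For both methods, lysates were incubated for 45 min with RNase I (1.3 U). In standard RIBO-seq (3 libraries), ribosomes were then pelleted through 30% sucrose. In AHARIBO RIBO-seq (2 libraries), ribosomes were captured on beads by way of their nascent chains, in which AHA, an analogue of methionine, had been coupled to biotin (50 µM of a DBCO reagent). All cells received cycloheximide, which blocks elongation, before lysis, and fragments of 25 to 35 nt were sequenced from both. The labels call all 5 libraries untreated biological replicates, and no AHA dose is given for them in the sources used here. The p-values below measure the spread between these libraries.

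The respiratory chain passes electrons from NADH through complex I, or from succinate through complex II, to ubiquinone, complex III and cytochrome c, and complex IV hands them to oxygen. Protons pumped on the way drive ATP synthase, also called complex V. A few core subunits are encoded by the mitochondrial genome and made on mitochondrial ribosomes, while the members described here are translated by cytosolic ribosomes and imported. Many of the imported subunits are very small proteins, and pluripotent stem cells are known for relying on glycolysis more than differentiated cells do.

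After removal of duplicate reads the libraries held 6403651 to 11150527 reads, and 43.3% to 47.7% of reads had been removed as duplicates. All 10 pluripotency markers were measured, with a summed level of 1504 to 1598 CPM (reads scaled to the size of the library) in standard RIBO-seq and 1341 to 1467 CPM in AHARIBO RIBO-seq, and 3 of them (Klf4, Sox2 and Utf1) passed as lower in AHARIBO RIBO-seq (edgeR, adjusted p under 0.05), as did 2.24% of all transcripts tested. DESeq2 called 1 of the 10. Markers of other cell types were low in both, with sums of 20.7 to 23.0 CPM for 6 neural genes, 3.86 to 5.04 CPM for 6 fibroblast genes, of which 2 had no read in any library, and 4.11 to 7.61 CPM for 6 endoderm genes. The part of these markers in the results below was not tested.

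The values of most respiratory chain genes were slightly lower in AHARIBO RIBO-seq than in standard RIBO-seq, but few genes passed the test. The differences that passed were small and in 1 direction. In total 79 of 84 members reached 1 CPM in a library and were tested, and 11 of them were lower in AHARIBO RIBO-seq at a Benjamini-Hochberg adjusted p under 0.05 in edgeR's quasi-likelihood test, which is 13.9% against 2.24% of all 66972 transcripts tested. These were Ndufa11, Ndufb2 and Ndufb7 of complex I, Uqcr11 and Uqcrq of complex III, Cox5a, Cox6a1, Cox7c and Cox8a of complex IV, and Atp5d and Atp5g3 of complex V. None was higher (background 2.27%), although 2 were at an unadjusted p under 0.05, namely Ndufs1 and Uqcrc2, and 25 were lower at that level (background 9.48% higher and 9.24% lower). DESeq2 called 0 higher as well. The falls of the 11 genes lay between 1.21-fold and 1.36-fold. Over the 79 members the median log2 fold change (AHARIBO over standard) was -0.12, against 0.00 over all transcripts tested, and 66 members (83.5%) lay below 0, against 49.7% of all transcripts. Both AHARIBO libraries lay below all 3 standard libraries in 43 members (54.4%) and above them in 5 (6.33%), where 16.5% and 17.3% of all transcripts did so. The shares over all transcripts were not matched to the members for level. DESeq2, which leaves out transcripts with few reads, gave an adjusted p to 18930 of the 66972 transcripts and to all but 4 of the 79 members. Small differences pass more readily where reads are many. CPM is a share of the library, so that fewer footprints on a transcript and more reads elsewhere give the same value, and in bulk samples fewer cells of a type and less RNA per cell cannot be told apart.

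The number of calls changed with the libraries used. With either AHARIBO library left out, 1 remains, and it is assumed to vary as the standard libraries do. Without AHARIBO RIBO-seq replicate 1 edgeR called 0 members (11 lower and 1 higher at an unadjusted p under 0.05), with 0.77% of all transcripts called in either direction and 0.234% lower. Without replicate 2 it called 12, all lower, with 5.77% of all transcripts called in either direction and 2.97% lower. Without standard RIBO-seq replicate 1 it called 6 members lower (0.68% of all transcripts), without replicate 2 it called 10 lower (2.23%) and 1 higher, and without replicate 3 it called 6 lower (1.35%). All 11 genes stayed below 0 whichever library was left out, with log2 fold changes of -0.53 to -0.19. DESeq2 called 3 of the 11 (Atp5d, Cox6a1 and Cox8a), where 0.666% of the transcripts with an adjusted p in that test were lower.

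**Figure D1:**
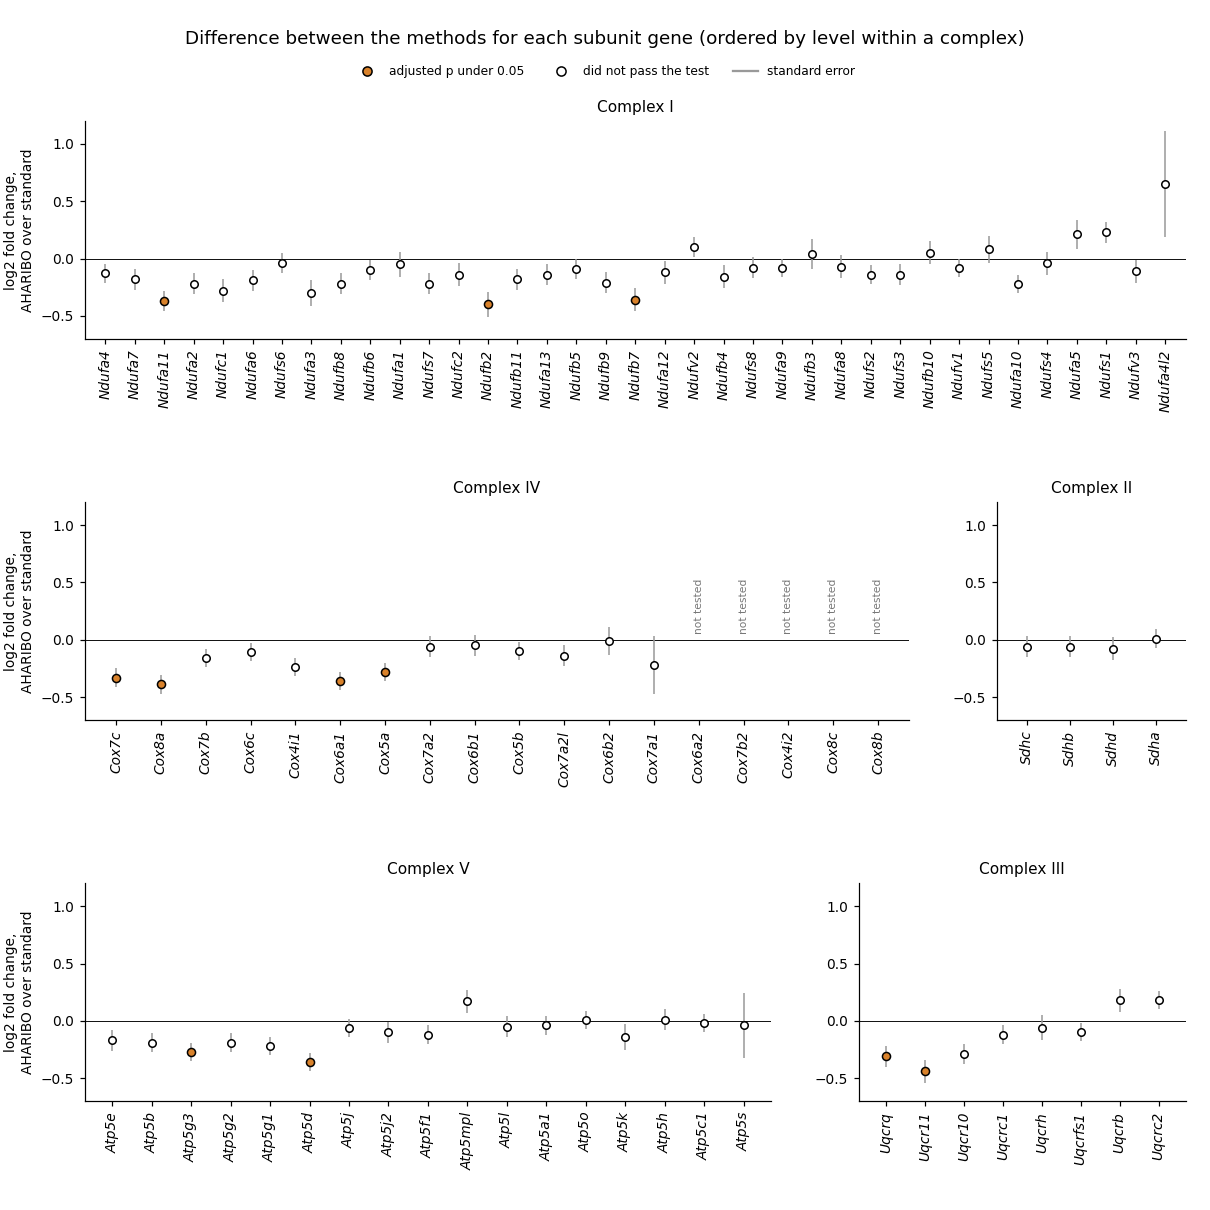
Log2 fold change of AHARIBO over standard RIBO-seq (y axis) for each gene (x axis), ordered by level within complexes I to V, with bars for the standard error. The 11 filled points, all below 0, passed the test, and 5 isoforms of complex IV did not reach 1 CPM and were not tested.

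Among the shortest coding sequences, 3 genes that were lower in AHARIBO RIBO-seq and 2 that did not pass the test are printed here, with every methionine codon of the reading frame (ATG, where AHA can take the place of methionine) in capitals. All are read from the Gencode M21 transcripts of build GRCm38 from start codon to stop codon, 5′ to 3′, and all lie on the minus strand. The M21 transcript of Cox8a is 550 nt long and the deposited one 545 nt. Uqcr11 (chr10:80402997-80406830, 56 codons) carries a small complex III subunit. Cox8a (chr19:7215153-7217616, 69 codons) and Cox7c (chr13:86044816-86046904, 63 codons) encode small complex IV subunits that span the inner membrane. Atp5e (chr2:174461072-174464105, 52 codons) encodes the epsilon subunit of ATP synthase, and Atp5mpl (chr12:111961375-111966977, 58 codons) encodes a small membrane protein associated with it.
Uqcr11: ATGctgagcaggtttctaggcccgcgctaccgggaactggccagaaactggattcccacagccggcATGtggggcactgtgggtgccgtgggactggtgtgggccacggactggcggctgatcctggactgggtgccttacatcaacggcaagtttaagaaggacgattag
Cox8a: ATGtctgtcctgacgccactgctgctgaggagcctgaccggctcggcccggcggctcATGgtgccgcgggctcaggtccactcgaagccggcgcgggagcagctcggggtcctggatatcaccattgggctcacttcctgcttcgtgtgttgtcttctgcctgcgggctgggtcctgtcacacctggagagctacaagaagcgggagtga
Cox7c: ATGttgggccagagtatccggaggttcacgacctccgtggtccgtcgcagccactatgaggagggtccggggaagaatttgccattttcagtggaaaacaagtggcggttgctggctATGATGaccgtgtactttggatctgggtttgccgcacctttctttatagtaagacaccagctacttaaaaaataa
Atp5e: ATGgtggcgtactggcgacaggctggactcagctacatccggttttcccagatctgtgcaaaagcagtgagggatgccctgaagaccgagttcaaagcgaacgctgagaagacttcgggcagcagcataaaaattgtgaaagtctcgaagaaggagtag
Atp5mpl: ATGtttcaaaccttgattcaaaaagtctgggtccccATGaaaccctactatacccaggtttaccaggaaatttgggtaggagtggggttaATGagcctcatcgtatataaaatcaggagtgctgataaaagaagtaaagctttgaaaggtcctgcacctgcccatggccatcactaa
The lower genes hold 2, 2 and 3 ATG codons in this order, and the other pair holds 1 and 3, so the number of methionine codons overlapped between them.

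Complex IV, cytochrome c oxidase, had the highest share of lower genes, 4 of the 13 tested, with a median log2 fold change of -0.16 and all 13 below 0, though the complexes were not tested against each other. Cox8a measured 75.8, 73.7 and 78.2 CPM in standard RIBO-seq and 52.5 and 63.1 CPM in AHARIBO RIBO-seq. Cox6a1, a regulatory subunit, measured 68.5, 69.8 and 72.5 CPM against 52.8 and 56.3 CPM. The groups did not overlap in either gene, and the log2 fold changes were -0.39 ± 0.08 (SE, edgeR adjusted p = 0.00292) for Cox8a and -0.36 ± 0.08 (adjusted p = 0.00482) for Cox6a1. Cox7c, which had the highest level per coding length of all members, measured 99.9, 99.0 and 114 CPM against 78.1 and 87.1 CPM, a log2 fold change of -0.33 ± 0.08 (adjusted p = 0.0104). Cox5a, a matrix-side subunit (chr9:57521279-57532426), measured 81.2, 81.1 and 88.5 CPM against 64.4 and 73.0 CPM. Its log2 fold change was -0.28 ± 0.08 (adjusted p = 0.0348). In both genes the lower library was AHARIBO RIBO-seq replicate 1. Cox4i1, the general form of subunit 4, had a log2 fold change of -0.24 that did not pass the test (adjusted p = 0.0744).

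In complex III, ubiquinol-cytochrome c reductase, 2 of 8 genes were lower, and both are small subunits outside the catalytic core. Uqcr11 had the largest fall of all members. It measured 34.8, 29.7 and 31.9 CPM in standard RIBO-seq and 22.8 and 24.7 CPM in AHARIBO RIBO-seq, a log2 fold change of -0.44 ± 0.10 (adjusted p = 0.00388). Uqcrq (chr11:53427922-53430827) measured 56.0, 61.7 and 69.2 CPM against 47.7 and 52.5 CPM, a log2 fold change of -0.31 ± 0.09 (adjusted p = 0.0291). Uqcr10, of similar size to these, lay just outside the threshold at -0.29 (adjusted p = 0.0549). The core proteins went different ways in value, with Uqcrc1 at -0.12, the Rieske protein gene Uqcrfs1 at -0.10 and Uqcrc2 at 0.18 on the log2 scale, and 0 of the 3 passed the test (edgeR; 1 at an unadjusted p under 0.05, and 0 by DESeq2). Uqcrc2 measured 49.9, 53.5 and 47.1 CPM against 58.3 and 55.4 CPM, so both AHARIBO libraries were above the standard ones, at an adjusted p of 0.238. The highest value of the complex was that of Uqcrb, at 0.18, with 0.357 as its adjusted p.

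In complex V, 2 of 17 genes were lower. Atp5d, the delta subunit of the F1 part that makes ATP (chr10:80141457-80145813), measured 94.0, 90.1 and 99.3 CPM in standard RIBO-seq and 68.3 and 78.5 CPM in AHARIBO RIBO-seq, a log2 fold change of -0.36 ± 0.08 (adjusted p = 0.00503). Atp5g3, 1 of 3 genes whose mature products form the same c-ring in the membrane (chr2:73908447-73911325), measured 88.3, 88.7 and 97.1 CPM against 70.8 and 80.1 CPM, with -0.27 ± 0.08 on the log2 scale (adjusted p = 0.0395). The other c-ring genes had lower values too, with -0.22 for Atp5g1 and -0.19 for Atp5g2, and did not pass (adjusted p = 0.115 and 0.168). The 4 peripheral stalk genes, which hold the F1 part in place, had a median of -0.03 and none passed (edgeR; 0 at an unadjusted p under 0.05, and 0 by DESeq2). With duplicates kept their median was 0.10. The catalytic beta subunit Atp5b, the member with the highest CPM before any allowance for length, measured 347, 354 and 372 CPM against 295 and 331 CPM. Its log2 fold change of -0.19 ± 0.08 had an adjusted p of 0.149, although its groups did not overlap. With duplicates kept its value was -0.02 (edgeR adjusted p = 0.909). Atp5mpl had the highest value in the complex, 0.17, and did not pass (adjusted p = 0.372).

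In complex I, NADH dehydrogenase, 3 of 37 genes were lower, and all are accessory subunits. Ndufa11 (chr17:56717767-56722137) measured 49.2, 49.3 and 51.4 CPM in standard RIBO-seq and 38.0 and 39.2 CPM in AHARIBO RIBO-seq, a log2 fold change of -0.37 ± 0.09 (adjusted p = 0.00588). Its deposited transcript is 2661 nt long and the Gencode M21 version 545 nt, so where its reads lie is less certain than for the others. Ndufb2 (chr6:39592574-39603382) measured 22.7, 24.2 and 21.6 CPM against 16.1 and 18.9 CPM, with -0.40 ± 0.11 on the log2 scale (adjusted p = 0.0208). Its transcript is 4371 nt long, most of it outside the 105 codons. Ndufb7 (chr8:83566671-83571626) measured 27.9, 27.3 and 29.5 CPM against 22.5 and 21.2 CPM. Its log2 fold change was -0.36 ± 0.10 (adjusted p = 0.0205), and it was the single lower gene in which AHARIBO RIBO-seq replicate 1 exceeded replicate 2. The 7 core subunits, which carry the electron transfer, had a median of -0.08 and 0 calls (edgeR; 1 lower and 1 higher at an unadjusted p under 0.05, and 0 by DESeq2). Ndufs1, the largest of them and an iron-sulphur protein, measured 52.4, 62.7 and 50.6 CPM against 65.2 and 65.3 CPM, and its log2 fold change of 0.23 ± 0.09 did not pass (adjusted p = 0.109). Without standard RIBO-seq replicate 2 it passed as the 1 member higher in AHARIBO RIBO-seq.

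Complex II, succinate dehydrogenase, also works in the citric acid cycle. Its 4 genes had log2 fold changes from -0.08 for Sdhd to 0.01 for Sdha, and 0 passed the test (edgeR; 0 also at an unadjusted p under 0.05 and by DESeq2). The catalytic flavoprotein Sdha measured 58.3, 68.8 and 59.8 CPM in standard RIBO-seq and 64.5 and 60.8 CPM in AHARIBO RIBO-seq. The groups overlapped in all 4 genes.

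**Figure D2:**
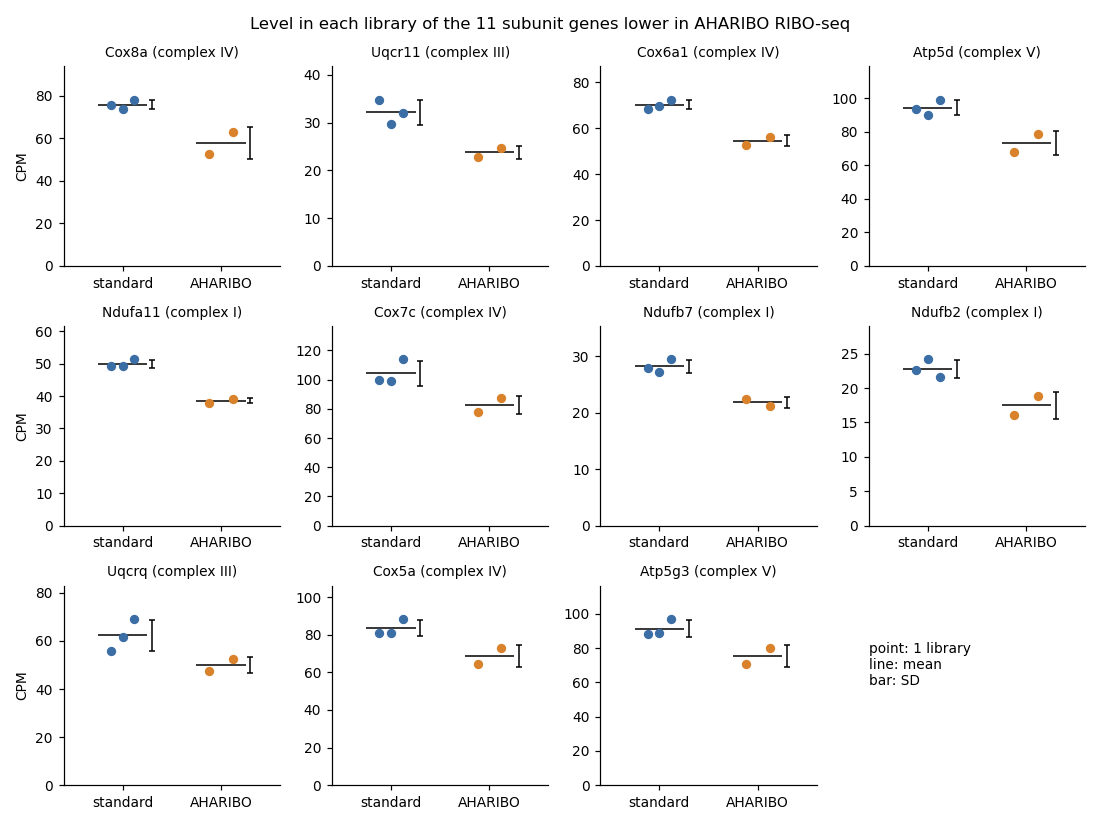
CPM in each library (y axis, from 0) of the 11 genes that were lower in AHARIBO RIBO-seq, by method (x axis), where a point is 1 library, a line the mean and a bar the SD. In every panel both AHARIBO points lie below the 3 standard points.

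Summed over all members, the share of the reads counted on all transcripts was 0.389%, 0.398% and 0.396% in the standard libraries and 0.36% and 0.373% in the AHARIBO libraries. Members enter it with 1 transcript per gene, while the total holds every transcript of a gene. The means were 0.394% ± 0.00481 (SD, n = 3) and 0.366% ± 0.00875 (SD, n = 2). The shares of complexes I, III, IV and V were lower in both AHARIBO libraries than in the standard ones, while those of complex II overlapped. Complex IV went from 0.0733% ± 0.00135 (SD, n = 3) to 0.0643% ± 0.00297 (SD, n = 2), and complex I from 0.123% ± 0.00217 to 0.116% ± 0.000639 (same n). Of the reads on the highest transcript of each gene alone, all members together held 1.02%, 1.05% and 1.03% in the standard libraries. In the AHARIBO libraries they held 0.966% and 0.976%. No test was made on these sums.

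The called genes had in common that their coding sequences were short. They spanned 56 to 168 codons, with a median of 112, and the other members tested spanned 52 to 727 codons, with a median of 144. By length, 4 of the 22 members of up to 100 codons were lower (18.2%), as were 7 of 37 members of over 100 and up to 200 codons (18.9%), and 0 of 20 members over 200 codons (edgeR; 3 lower and 2 higher at an unadjusted p under 0.05, and 0 by DESeq2). Over all protein-coding transcripts tested with a complete coding sequence, 4.24% of those of up to 100 codons, 6.03% of those of over 100 and up to 200 codons and 1.14% of the longer ones were lower. The median log2 fold change of members was -0.15, -0.14 and -0.08 in these classes, beside -0.08, -0.09 and 0.03 over all protein-coding transcripts of the same class. Both the members and all transcripts of the 2 shorter classes had medians below 0. The median member tested had 137 codons, beside 457 for all protein-coding transcripts tested. Across the 79 members the Spearman correlation between coding length and log2 fold change was 0.24, a weak relation over genes measured in the same 5 libraries.

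**Figure D3:**
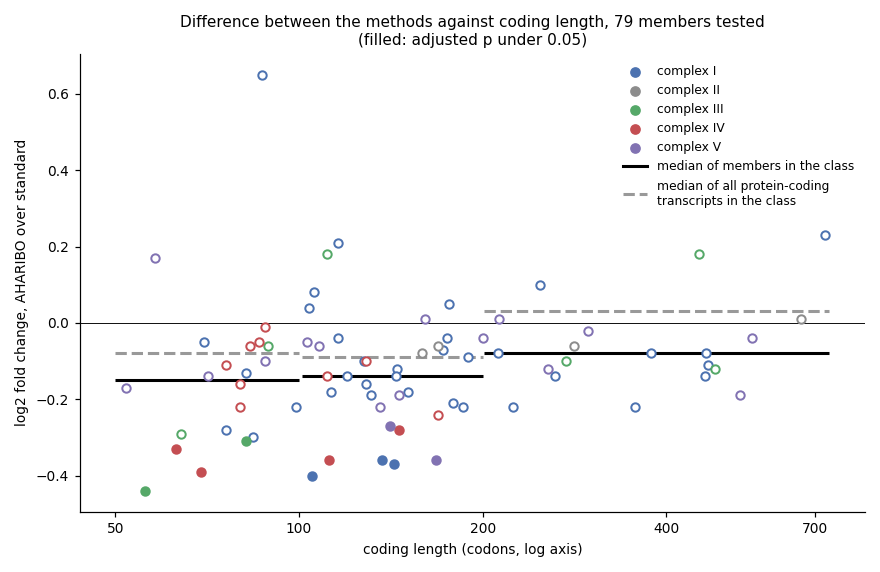
Log2 fold change of AHARIBO over standard RIBO-seq (y axis) against coding length in codons (x axis, log) for 79 members, coloured by complex, with filled points for genes that passed the test. Solid lines mark the members' median in each length class (-0.15, -0.14 and -0.08) and dashed lines that of all protein-coding transcripts in the class (-0.08, -0.09 and 0.03).

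AHA enters at methionine codons, and members differ widely in how many they have, from 1 in genes such as Atp5e, Uqcr10 and Ndufb4 to 25 in Ndufs1. Of 19 members with 1 or 2 ATG codons 5 were lower, with a median log2 fold change of -0.16. Of 23 members with 3 or 4, 3 were lower (median -0.07), of 19 members with 5 to 7, 3 were lower (median -0.12), and of 18 members with 8 or more, 0 were lower (median -0.08, edgeR; 4 lower and 2 higher at an unadjusted p under 0.05, and 0 called by DESeq2). Over all protein-coding transcripts 6.57%, 3.94%, 2.32% and 0.804% were lower in the same classes. Coding length rose with the number of ATG codons, from a median of 86 codons in the first class to 338 in the last, and the members with a single ATG codon were not among the called genes.

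The level of a subunit in standard RIBO-seq was compared between genes as CPM per kilobase of coding sequence, which is proportional to footprints per codon. Complex IV had the highest median, 147, followed by complex V with 130, complex III with 83.4, complex I with 65.3 and complex II with 63.4. Cox7c stood first at 552 ± 45.1 (SD, n = 3), followed by Cox8a at 367 ± 10.8, and these did not overlap. In complex V Atp5e (268 ± 18.4) and Atp5b (225 ± 8.16) were highest, and the alpha subunit Atp5a1, which pairs with beta in the F1 part, stood at 114 ± 8.06. In complex III Uqcrq was highest at 253 ± 26.8, and Uqcrc2 lowest at 36.9 ± 2.37. In complex I Ndufa4, now known as a subunit of cytochrome c oxidase despite its name, stood at 203 ± 6.65 and Ndufa7 at 152 ± 7.87. In complex II Sdhc (74.3 ± 3.91) and Sdhb (63.5 ± 1.99) exceeded Sdha (31.3 ± 2.85), all with n = 3. The lowest member of complex V was Atp5s, a coupling factor rather than a structural subunit, at 4.05 ± 1.08.

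Members with a higher level tended to have a lower log2 fold change. Across the 79 members the Spearman correlation between mean level per coding length and log2 fold change was -0.49, and with duplicate reads kept it was -0.23. The called genes had a median level of 191 CPM per kilobase in standard RIBO-seq, against 77.1 for the others tested. These coefficients run over genes of the same libraries and are descriptions.

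**Figure D4:**
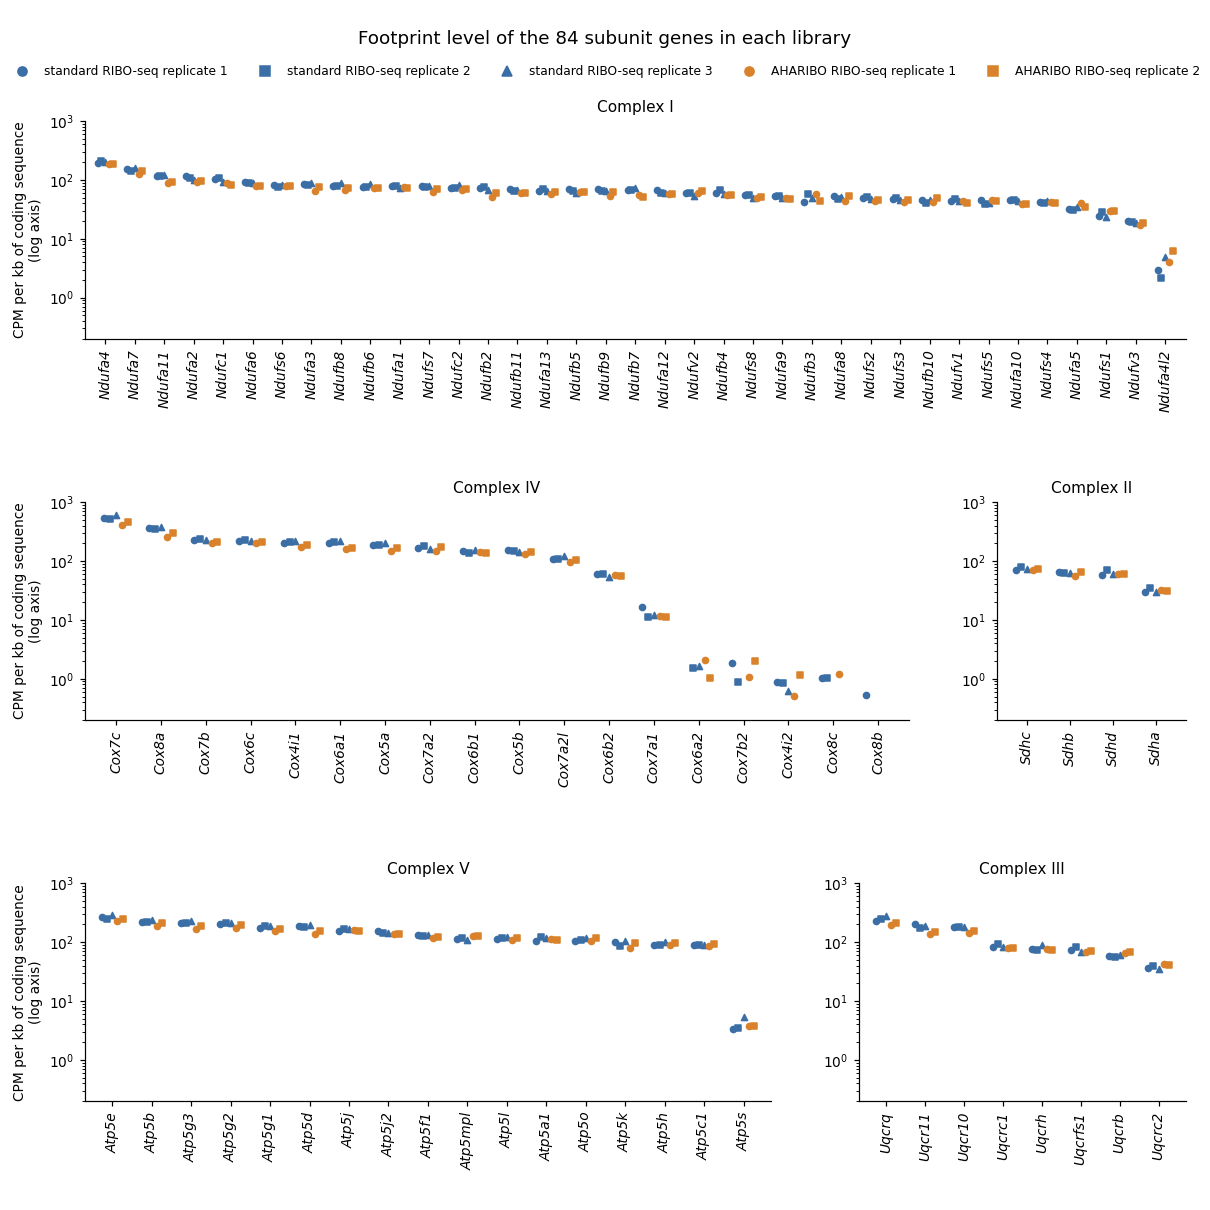
CPM per kilobase of coding sequence (y axis, log) of the 84 genes (x axis) in each of 3 standard and 2 AHARIBO RIBO-seq libraries, by complex, with libraries at 0 reads not drawn. Cox7c is highest at 552 on average in standard RIBO-seq. Ndufa4l2 lies at the bottom of complex I and isoforms of other tissues at the bottom of complex IV, with Cox6b2 the highest of them.

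Several complex IV subunits come in a general form and a form known from certain tissues such as heart, skeletal muscle, lung or testis. Cox4i2, Cox6a2, Cox7b2, Cox8b and Cox8c had 0 to 7 reads in any library, around the 3 reads taken as the floor (0.262 to 0.476 CPM), while the general forms Cox4i1, Cox6a1, Cox7b and Cox8a had levels of 209 to 367 CPM per kilobase in standard RIBO-seq. Cox6b2, known from testis, stood well above these. It measured 15.6, 15.9 and 14.1 CPM in standard RIBO-seq and 15.4 and 14.9 CPM in AHARIBO RIBO-seq, with 89 to 176 reads per library, and no window of 30 nt of its transcript was found in a transcript of another gene. Per coding length it made up 28.2% ± 2.09 (SD, n = 3) of the Cox6b1 and Cox6b2 footprints in standard RIBO-seq and 29.0% ± 0.237 (SD, n = 2) in AHARIBO RIBO-seq. Cox7a1, the muscle form, made up 7.35% ± 1.78 and 6.64% ± 0.794 beside Cox7a2 (same n). These shares use reads left after duplicate removal, which took 14.9% of Cox6b2 reads and 36.5% of Cox6b1 reads. It took 8.67% for Cox7a1 and 50.4% for Cox7a2, so both isoform shares would be lower with duplicates kept. Ndufa4l2, a hypoxia-responsive relative of Ndufa4, had 5 to 16 reads per library, and its log2 fold change of 0.65 ± 0.46, the highest value of all members, did not pass (adjusted p = 0.476).

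Duplicate removal differed widely between members. The median member tested lost 36.5% of its reads and the median transcript tested 10.7%, while whole libraries lost 43.3% to 47.7%, and the share of reads on members was nearly the same with duplicates kept (0.388% in standard and 0.36% in AHARIBO RIBO-seq) as without them. The 79 members tested ranged from 5.36% for Atp5s to 63.9% for Cox7c. Reads without molecular identifiers that start and end at the same place cannot be told from copies. The share removed rose with the number of reads left per coding nt, with a Spearman correlation of 0.86 over the 79 members. By library the median member lost 35.9%, 36.1% and 34.1% in standard RIBO-seq and 40.1% and 35.5% in AHARIBO RIBO-seq, so AHARIBO RIBO-seq replicate 1 stood highest. Over all transcripts tested the medians were 10.7%, 9.54% and 14.0% in standard and 11.6% and 10.0% in AHARIBO RIBO-seq, where standard RIBO-seq replicate 3 stood highest. In AHARIBO RIBO-seq replicate 1 the share removed exceeded all 3 standard libraries in 10 of the 11 called genes and in 59 of 79 members, while in AHARIBO RIBO-seq replicate 2 it exceeded them in 2 of 11 and 16 of 79 and lay below them in 4 of 11 and 20 of 79. With duplicates kept, 5 of the 11 genes passed (Atp5d, Cox5a, Cox6a1, Cox8a and Uqcr11), against 1.51% of transcripts lower. The members' median was then -0.08, and 56 of 78 members lay below 0. All 11 genes remained below 0, from -0.51 for Uqcr11 to -0.08 for Atp5g3. The part of duplicate removal in the differences was not tested.

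**Figure D5:**
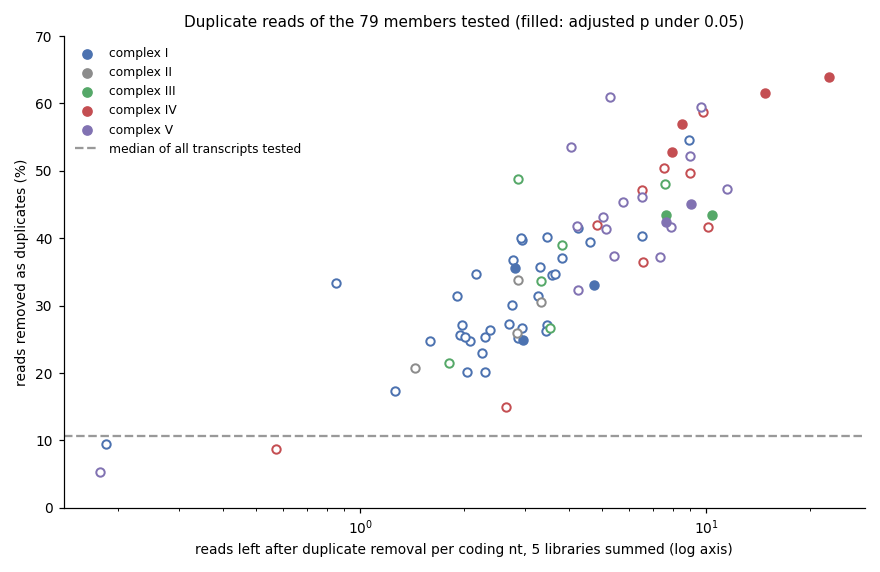
Percent of reads removed as duplicates (y axis) against the reads left per coding nt, summed over 5 libraries (x axis, log), for 79 members coloured by complex, with filled points for genes that passed the test. Members rise from 5.36% for Atp5s to 63.9% for Cox7c, and the dashed line marks the median of all transcripts tested at 10.7%.

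Many of these genes have processed pseudogenes or close relatives, and reads from such copies cannot be assigned with certainty. At least 10% of the 30-nt windows of the transcript recurred in a transcript of another gene in 30 of 84 members, up to 87.7% in Atp5g2. Among the called genes these were Cox7c (56.0%, most often with Gm10012), Cox6a1 (24.7%), Ndufa11 (21.5%, with Ndufa11b), Uqcr11 (20.0%) and Cox5a (17%). The other 6 called genes were among 49 tested members with fewer shared windows, whose median log2 fold change was -0.10. The 11 called genes had 19 protein-coding transcripts tested between them, which share reads, and 15 of those were lower and all 19 below 0. The other 4 belong to Cox7c and Uqcrq, each of which had 3 transcripts tested and 1 lower, with values up to -0.07 and -0.03.

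Lists of genes that work with these subunits were examined in the same fit, in which 2.24% of all transcripts were lower and 2.27% higher. Of 9 measured subunits and carriers that the symbols leave out, Ndufab1, the mitochondrial acyl carrier protein and a complex I subunit, was lower at -0.38 ± 0.09 on the log2 scale (adjusted p = 0.00739), and cytochrome c1 (Cyc1) had -0.25 with an adjusted p of 0.0582. Of 45 assembly factors 1 was lower, Cox14, at -0.41 ± 0.11 (adjusted p = 0.0158), and the median was -0.10. Of 16 citric acid cycle enzymes 1 was higher and 0 lower, with a median of -0.02, and of 24 protein import genes 4 were lower and 0 higher, with a median of -0.12 (edgeR). DESeq2 called 0 genes in these 4 lists, but it gave no adjusted p to most assembly factors or to Etfdh, Timm9, Timm21 and Timm22, which could not be called. The genes called by edgeR were Dld in the cycle and Timm10b, Timm13, Tomm40 and Tomm6 in import, named after their values were seen. The partner subunits encoded in mitochondria were lower in 13 of 13 cases, with a median log2 fold change of -1.84 and a range of -2.19 to -0.77, beside -0.44 to 0.65 for the nuclear-encoded members.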

How the data were processed

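Ribosome profiling of mESCs was examined in 3 standard and 2 AHARIBO RIBO-seq libraries, assigned by the labels. For each transcript the authors deposited its length in nt and its raw read counts, with duplicates removed and with duplicates kept. Reads had been trimmed with Trimmomatic 0.36, depleted of rRNA and tRNA and aligned with STAR to Gencode M17 transcripts (GRCm38.p6). How reads matching several transcripts were counted is not given in the sources used here. Per-sample columns left unused numbered 0.

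Counts without duplicates were scaled by TMM over all transcripts, and the 66972 transcripts that reached 1 CPM in any library were tested in edgeR 4.0.16 (R 4.3.3) by its quasi-likelihood test, with Benjamini-Hochberg adjustment over all of them. Approximate standard errors were derived as the log2 fold change over the root of F. DESeq2 1.42.0 was run beside it, and both were tested on simulated data. Gene types, coding lengths and sequences came from Gencode M21, matched by identifier for 99.8% of transcripts, with 77 of 84 members equal in length. Methionine codons were counted in these coding sequences. Members and gene lists were chosen with earlier results of these data known. Genes named were every member called, the 2 highest and the lowest in level and the largest positive and negative change of each complex, tissue isoforms with their counterparts, and called genes of 2 related lists. Called genes of the citric acid cycle, import and pluripotency lists, and members that complete a family or give an opposite value, were added after their values were seen. A floor of 3 reads covers counting error only. The main fit did not treat replicate numbers as pairs.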

Additional observations from a re-analysis of the deposited data

How the results depend on the processing

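The direction of the members' median and of the 11 called genes held under every alternative run, while the number of calls did not. The count of members called was 11, and it fell to 3 with DESeq2, to 5 with duplicates kept, to 6 without members sharing at least 10% of windows, and to 0 at a log2 fold change over 1.5 with an adjusted p of 0.01 or less, a size that no called member reached. Leaving out each library in turn gave 0 to 12 calls, with 0 without AHARIBO RIBO-seq replicate 1 and 6 without standard RIBO-seq replicate 1 or 3, and a median log2 fold change of -0.15 to -0.10. With the replicate number as a block 5 were called, all lower, against 1.23% of all transcripts lower. The difference between replicates 1 and 2 did not correlate between the methods (r = -0.028 over 66972 transcripts). This check rests on 1 difference per method and on many transcripts with few reads, so it cannot exclude pairing. The main fit did not treat the numbers as pairs. The median was -0.08 with duplicates kept and -0.08 with library size in place of TMM. The share of reads on members was 0.388% in standard RIBO-seq with duplicates kept, and leaving out libraries gave 0.392% to 0.397% in standard and 0.36% to 0.373% in AHARIBO RIBO-seq. The median level was 78.7 CPM per kilobase of coding sequence, 65.3 with duplicates kept and 42.0 per kilobase of full transcript. Some values changed sign in some settings, none of them called, and the genes that follow are examples. Atp5s went to 0.15 with the replicate block and reached 0.15 with a library left out. With duplicates kept Ndufa4 went from -0.13 to 0.08, Cox7b from -0.16 to 0.03, Atp5j from -0.06 to 0.19 and Sdhc to 0.03. Sdha went to -0.00 with DESeq2 and -0.02 with the block, and ranged from -0.04 to 0.09 as libraries were left out. Over the same settings Sdhb ranged from -0.16 to 0.05 and Sdhd reached 0.02. The cause of these changes was not tested. Members under the floor of 3 reads have no order among them.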
